A study of Mus musculus with 6 samples.

Results

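The genes described here encode the proteins of the cytosolic ribosome. They were taken by name from a mouse array: a probe set had to name exactly 1 gene symbol of the Rpl, Rplp, Rps or Rpsa series, with Rps6k kinases left out, and 1 probe set per symbol was kept, the one with the highest mean log2 intensity. This gave 60 genes of 20193 tested, 36 of the large subunit, 23 of the small subunit and the paralogue Rps27l, represented by 177 probe sets in all. A list of 80 cytosolic ribosomal proteins holds 21 further genes. Of these, 18, among them Rps6 and Rpl11, were named only on probe sets that list several symbols, and the other 3 carry names outside the series. RNA came from 6 cultures of mouse EpiSCs (epiblast stem cells), which represent the pluripotent epiblast after implantation and are called primed. The 3 Dicer -/- samples were Dicer fx/fx cells given 0.3 µM 4-OH-tamoxifen for 3 days and then kept 2 days without it. The 3 Dicer fx/fx samples were untreated cells of the same floxed genotype, plated and divided alongside, and RNA was taken on day 5. Dicer, a ribonuclease, releases mature microRNAs from their hairpin precursors. Every culture had 20 ng/ml Activin and 12 ng/ml bFGF, and each of the experiments 18, 19 and 20 held 1 sample of each group. Exposure to tamoxifen went with deletion in every sample, so the drug and the deletion cannot be told apart. The recombinase and the number of clones are not given in the sources used here.

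The ribosome joins a small subunit, which holds the messenger RNA and decodes it, to a large subunit, which forms peptide bonds and carries the exit tunnel for the new chain. Cells make them in step with ribosomal RNA. Ribosomal protein messenger RNAs are among the most abundant in growing cells, and most begin with a 5′ terminal oligopyrimidine (TOP) tract, through which mTOR and the RNA-binding protein LARP1 control their translation. Pluripotent cells divide fast and have a high demand for ribosome production.

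Windows of 300 bases around the RefSeq gene start, 250 before and 50 after it, were found for 44 of the 60 genes in the RefSeq table of build GRCm38.p6. A pyrimidine tract, here a C followed by at least 7 bases that are C or T, on the sense strand within 50 bases of the start, was found in 36 of the 44 (81.8%) and in 32% of all 27025 genes with a window. The ETS-factor letters CCGGAAG, on either strand of the 300 bases, were found in 16 of 44 (36.4%) against 9.93% of all genes. The E-box CACGTG was found in 6 (13.6%) against 8.09%, the letters TATAAA in 6 (13.6%) against 15.7%, and the NRF1 motif in 1 (2.27%) against 1.07%. Motifs were counted separately and may overlap, and windows were not matched for base composition. The following stretches of 30 bases are shown because the first 4 genes had the smallest unadjusted p on the lower side, with the experiment as a block, among members with a window. The last 2 are shown because Rpl39 stood alone on the higher side and Rps27l is the paralogue. They are written 5′ to 3′ on the gene's strand, with the tract in capitals.
Rps12, chr10:23787182-23787211, minus strand: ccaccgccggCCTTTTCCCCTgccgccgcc
Rplp2, chr7:141447636-141447665, plus strand: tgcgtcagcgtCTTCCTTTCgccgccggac
Rps21, chr2:180257399-180257428, plus strand: ggaggcacgagctaCTTCCTTTCTgcgctc
Rps15a, chr7:118116143-118116172, minus strand: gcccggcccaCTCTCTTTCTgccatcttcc
Rpl39, chrX:37085173-37085202, minus strand: gttcttccggtcccggCCTTTCTCTTCTCC
Rps27l, chr9:66946053-66946082, plus strand: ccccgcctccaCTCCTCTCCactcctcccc
The tracts are 8 to 20 bases long among all the members that have one. The RefSeq start need not be the first base of the main transcript, so a tract near it is not shown to be the TOP tract. The median log2 difference between deleted and control cells was -0.05 in members with a tract and -0.07 in members without.

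Each sample was measured on 1 Affymetrix MoGene 1.0 ST array, whose median intensity lay between 247.7 and 260.1. Dicer1, the deleted gene, had intensities of 601.6, 553.1 and 645.4 in deleted samples 18, 19 and 20, against 1836, 2079 and 2098 in the controls, a log2 difference of -1.74 ± 0.09 (SE, n = 3 arrays per group, limma adjusted p = 0.045; 0.067 with the experiment as a block). This call was lost when any 1 array was left out, with differences of -1.80 to -1.68. All 10 EpiSC markers listed, among them Pou5f1, Sox2 and Otx2, lay above the median level of all genes. Their summed intensity was 48689, 50702 and 41807 in deleted samples 18, 19 and 20, against 44668, 49967 and 51157 in the controls. The median difference of the 10 genes was 0.15, -0.06 and -0.26 in these experiments. Of the 10, 2 were lower and 1 was higher in all 3 experiments, and the rest had mixed signs. Markers of mesoderm differed between experiments: their 8 genes summed to 3123 and 3746 in deleted samples 18 and 19 and to 17499 in deleted sample 20, against 2630, 2677 and 18118 in the controls. Within pairs these markers did not move together. T, the Brachyury gene, had 1012, 1200 and 11797 in deleted samples, against 347.8, 271.1 and 7004 in controls. Its difference was 1.48 ± 1.59 (limma adjusted p = 0.945), and the SE was 0.26 with the block (adjusted p = 0.152). Of the other mesoderm markers, 2 were lower in all 3 experiments and 5 had mixed signs. Endoderm markers (8 genes) summed to 1625, 2361 and 6388 in deleted samples, against 1707, 2245 and 8126 in controls. Fibroblast markers (10 genes) summed to 2686 to 3428 in deleted and 2539 to 2969 in control arrays, and neural markers (7 genes) to 4955 to 7781 and 4397 to 5797. Fabp7, a radial glia gene among the neural markers, was above its control in all 3 experiments. Its difference was 0.81 ± 1.28 (limma adjusted p = 0.975), and the SE was 0.07 with the block (adjusted p = 0.138). Of the 7 neural markers, 2 (Fabp7 and Nes) were higher in all 3 experiments and 1 (Neurog2) was lower in all 3. The rest had mixed signs. The part of these markers in the results below was not tested. In bulk RNA, fewer cells of a type and less RNA per cell cannot be told apart. Unless said otherwise, each difference below is on the log2 scale, deleted minus control, with its SE from limma (3 arrays in each group), and p-values are adjusted over all 20193 genes.

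Ribosomal protein genes stood slightly below control in deleted cells, and the shift was small. The median difference over the 60 genes was -0.05, with quartiles of -0.12 and -0.02, beside -0.04 over all genes and 0.01 over the 887 genes with a mean log2 level of at least 12. The mean was lower in 51 of the 60 (85%), where it was in 62.2% of all genes. None of the 60 passed the test (lowest limma adjusted p = 0.824, and 0.202 with the experiment as a block). Of all genes 0.00495% passed, which is Dicer1 alone, and 0% with the block. At an unadjusted p under 0.05, 1 member was lower (3.77% of all genes were) and 0 were higher (2.22%). With the block it was 5 lower (9.05% of all genes) and 0 higher (8.04%). By sign alone, 39 of the 60 (65%) were lower in all 3 experiments, where 28.3% of all genes were, and 1 was higher in all 3, where 15.2% of all genes were. The count was 29 of 60 (48.3%, against 26% of all genes) when arrays were centred on their medians and 41 (68.3%, against 21.9%) when they were quantile normalized again. Among genes at log2 level 12 or above, 31 of 51 members (60.8%) were lower in all 3, where 18.7% of such genes were, and 1 was higher in all 3, where 21.8% were. In the same set 42 of 51 had a lower mean (46.1% of such genes), 4 of 51 were lower without overlap of the groups (4.4%), and 1 of 51 was lower at an unadjusted p under 0.05 with the block (3.72%). Counts over all 3 experiments compare each deleted array with the control of its own experiment, and the genes are not independent of each other.

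The shift had the same sign in each experiment. Over the 60 genes the medians for experiments 18, 19 and 20 were -0.03, -0.05 and -0.06, beside -0.02, -0.05 and -0.03 over all genes and 0.02, 0.01 and -0.01 over the genes at level 12 or above. With an experiment left out, the members lower in both of the others numbered 43 without 18, 49 without 19 and 44 without 20. The share of all genes lower in both was not counted, so these numbers have no background beside them. The median depended on keeping pairs together: it was -0.09 without deleted sample 18, -0.02 without deleted sample 20, -0.02 without control 18 and -0.08 without control 20. The differences of single members recurred in part, with r = 0.43 between experiments 18 and 19, 0.64 between 18 and 20 and 0.51 between 19 and 20 over the 60 genes. Without the 3 members with the largest differences r was 0.34, 0.55 and 0.31, and Spearman's rho over the 60 was 0.39, 0.55 and 0.33. Over all genes r was 0.50, 0.35 and 0.26. These points share arrays and probe sets of very different brightness, so the coefficients are descriptions.

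**Figure D1:**
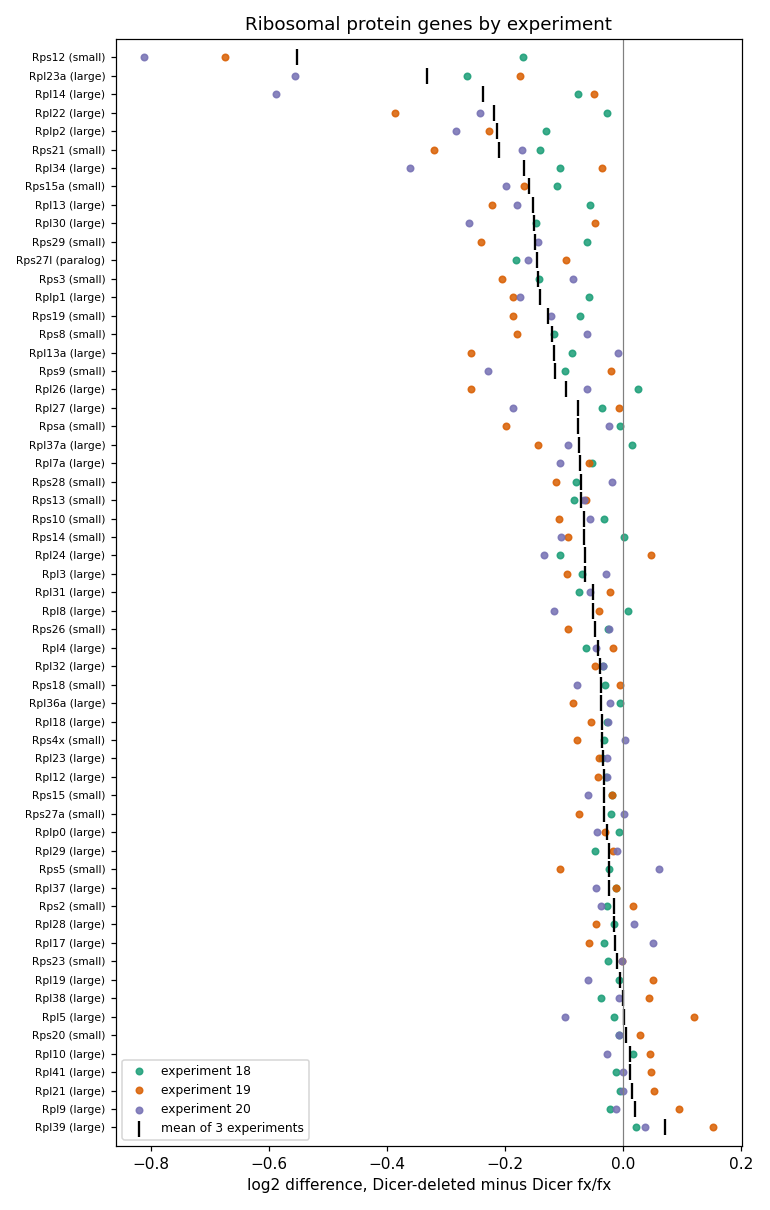
Log2 difference of Dicer-deleted minus Dicer fx/fx (x axis) for 59 of the 60 genes (y axis, with its subunit), ordered by the mean. Coloured points are experiments 18, 19 and 20 and the black tick is their mean; 51 means lie below 0, and most lie within 0.2 of it.

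Experiment 20 gave the lowest value of its group for most members, among deleted and among control samples. The array with the lowest value of a gene was deleted sample 20 for 40 of the 60 genes, and the array with the highest value was control 18 for 36. Both counts were made for the members only, so no share of all genes stands beside them. The level of each gene minus its median over the 6 arrays had a median over members of 0.02, -0.03 and -0.11 in deleted samples 18, 19 and 20, against 0.05, 0.02 and -0.04 in controls 18, 19 and 20. Control 20 lay below both other controls for 41 of 60 members (68.3%), where it did so for 43% of all genes and 32.1% of those at level 12 or above. Deleted sample 20 lay below both other deleted samples for 45 of 60 (75%), against 39.9% of all genes. For 48 of the 60 genes control 20 differed from the mean of the other controls by more than deleted differed from control cells, as for 703 of the 887 genes at level 12 or above, a like share, and 13974 of all 20193 genes. By subunit, control 20 stood -0.21 from the other controls at the median of 23 small-subunit genes and -0.03 at the median of 36 large-subunit genes. Mesoderm and endoderm marker sums went the other way, being highest in both arrays of experiment 20 as given above. Their part in the ribosomal protein baseline was not tested.

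**Figure D2:**
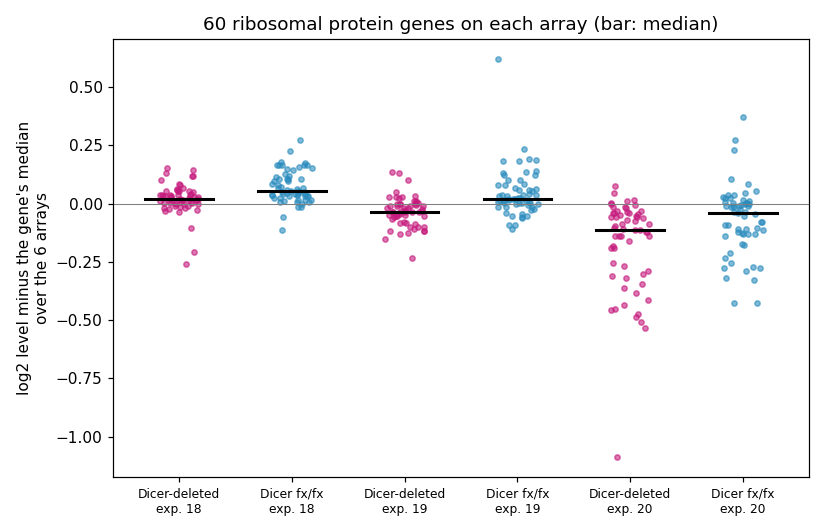
Log2 level of each of the 60 genes minus its own median over the 6 arrays (y axis), by array (x axis), with deleted and control arrays of an experiment side by side; points are genes and bars are medians. Medians are 0.02 and 0.05 in experiment 18, -0.03 and 0.02 in experiment 19, and -0.11 and -0.04 in experiment 20, deleted first.

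Among the small-subunit genes, 21 of 23 had a lower mean in deleted cells, 16 were lower in all 3 experiments and 0 were higher in all 3, with a median of -0.07. Of all genes 62.2% had a lower mean, 28.3% were lower in all 3 and 15.2% were higher in all 3. Rps12, a protein of the head of the small subunit, had the most negative difference of the family. Its intensity was 667.6, 619.5 and 302.6 in deleted samples 18, 19 and 20, against 751.1, 989 and 530.9 in the controls. Each deleted sample was below the control of its experiment, but the groups overlapped because control 20 was below deleted samples 18 and 19. The difference was -0.55 ± 0.38 (adjusted p = 0.893), and the SE was 0.13 with the block (adjusted p = 0.202). Rps21, a small protein of the subunit body, had 3197, 2661 and 2237 in deleted samples, against 3523, 3322 and 2520 in controls, a difference of -0.21 ± 0.18 (adjusted p = 0.93). With the block its SE was 0.07 (limma adjusted p = 0.243). Rps15a had 5001, 4488 and 4036 in deleted samples, against 5405, 5044 and 4632 in controls, a difference of -0.16 ± 0.11. Its SE was 0.06 with the block (limma adjusted p = 0.274). In both genes the deleted sample was the lower of every pair and the groups overlapped. Within experiments 18, 19 and 20 the differences were -0.17, -0.67 and -0.81 for Rps12 and -0.14, -0.32 and -0.17 for Rps21. Leaving out 1 array breaks a pair, and control 20 was the lowest control of both genes. Without deleted sample 20 Rps12 was at -0.19 and Rps21 at -0.08. With any 1 array left out they ran from -0.79 to -0.19 and from -0.36 to -0.08.

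Rps3, which lies at the entry of the messenger RNA channel and also acts in DNA repair, had 7267, 7031 and 6577 in deleted samples, against 8021, 8105 and 6974 in controls (-0.14 ± 0.09). Rps19, the gene most often mutated in human Diamond-Blackfan anaemia, had 8518, 7904 and 6662 in deleted samples, against 8962, 9000 and 7249 in controls. Its difference was -0.13 ± 0.13 (adjusted p = 0.942), with each deleted sample below its own control, at -0.07, -0.19 and -0.12 by experiment. It was -0.03 without deleted sample 20 and -0.23 without control 20, and both values break a pair. Rpsa, the laminin receptor precursor, showed the baseline plainly, with 4491, 3909 and 3065 in deleted samples, against 4510, 4486 and 3115 in controls. Its difference with deletion was -0.08 ± 0.21, while control 20 stood -0.53 from the other controls.

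Large-subunit genes were lower on average in 29 of 36 cases and lower in all 3 experiments in 22, with a median of -0.04. The shares of all genes were 62.2% and 28.3%. The stalk proteins Rplp0, Rplp1 and Rplp2, which recruit the translation factors, were lower in all 3 experiments. Rplp0 had 16929, 16558 and 16434 in deleted samples, against 17004, 16913 and 16957 in controls (-0.03 ± 0.05). Rplp1 had 17252, 15351 and 12794 in deleted samples, against 17969, 17478 and 14447 in controls (-0.14 ± 0.14). Rplp2 had 275.7, 262.4 and 202.2 in deleted samples, against 301.7, 307.3 and 246.2 in controls (-0.21 ± 0.15, adjusted p = 0.899; SE 0.06 and adjusted p 0.231 with the block). By experiment Rplp1 was at -0.06, -0.19 and -0.18 and Rplp2 at -0.13, -0.23 and -0.28. Without deleted sample 20 Rplp1 was at -0.02 and Rplp2 at -0.08, and without control 20 they were at -0.24 and -0.32. Values with 1 array left out break the pair of experiment 20. Rplp0 is often used as a reference transcript, and its 6 values lay within a narrow range.

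Rpl23a, at the mouth of the exit tunnel, was the member whose unadjusted p was under 0.05 without the block. Its intensity was 1496, 1665 and 1523 in deleted samples, against 1797, 1881 and 2238 in controls, so that the groups did not overlap. The difference was -0.33 ± 0.10 (limma adjusted p = 0.824), and the SE was 0.09 with the block (limma adjusted p = 0.221). Groups without overlap, deleted below control, were found in 5 of the 60 genes (8.33%), and in 9.93% of all genes: the other 4 were Rps27l, Rpl13a, Rpl27 and Rpl7a. The opposite order was found in 0 members and in 3.26% of all genes. Rpl14 had 1545, 1436 and 1067 in deleted samples, against 1629, 1486 and 1604 in controls. Its difference of -0.24 ± 0.15 came mostly from experiment 20, at -0.59, with -0.08 and -0.05 in the other experiments, and was -0.08 without deleted sample 20. Rpl22, which also binds cellular and viral RNAs, had 2559, 2118 and 1830 in deleted samples, against 2609, 2769 and 2167 in controls (-0.22 ± 0.16). By experiment it was at -0.03, -0.39 and -0.24. It was at -0.10 without deleted sample 20, and at -0.35 without deleted sample 18, and both of these values break a pair. Rpl5, which with Rpl11 and 5S ribosomal RNA forms the particle that binds MDM2, had 9914, 10970 and 9270 in deleted samples, against 10025, 10097 and 9925 in controls. Its difference was 0.00 ± 0.08, with experiments on both sides of 0. Rpl11, measured only on a probe set that names several symbols, had experiment differences of -0.09, -0.15 and -0.18. Rps6, the small-subunit protein that S6 kinases phosphorylate, was read on such a probe set too, at 0.00, 0.08 and 0.00.

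Rpl39, a small protein of the exit tunnel, was the 1 member above control in all 3 experiments. It had 15005, 16496 and 16219 in deleted samples, against 14787, 14839 and 15811 in controls, a difference of 0.07 ± 0.07 (adjusted p = 0.936). The groups overlapped. The next most positive means were 0.02 for Rpl9, 0.02 for Rpl21 and 0.01 for Rpl41, each above 0 only in experiment 19. The small-subunit median minus the large-subunit median was -0.03 over the group means and 0.00, -0.05 and -0.01 in experiments 18, 19 and 20. The SD of these 3 values was 0.03, so the order of the subunits did not stand out from the spread of the experiments. Without deleted sample 20 the subunit difference was 0.02. That value breaks a pair and keeps control 20, which was further below the other controls in small-subunit genes, as given above.

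Size of difference went with brightness of the probe set. The 32 members at a mean log2 level of 13 or above had a median of -0.03 and a range of -0.15 to 0.07. The 28 dimmer members had a median of -0.12, a range of -0.55 to -0.01, and 28 of 28 lower means, where 62.2% of all genes had one. The share among genes below level 13 was not counted, so that count is not set against genes of like level. The 9 members below level 12 had a median of -0.21. Over the 60 genes, Spearman's rho between level and difference was 0.70, a description over probe sets that share the same 6 arrays. Genes at level 13 or above were also less spread in general: the 176 of them had quartiles of -0.03 and 0.07, against -0.11 and 0.05 for all genes. The intensities of the brightest members, up to 17969, approached the highest value in the table, 25736.

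**Figure D3:**
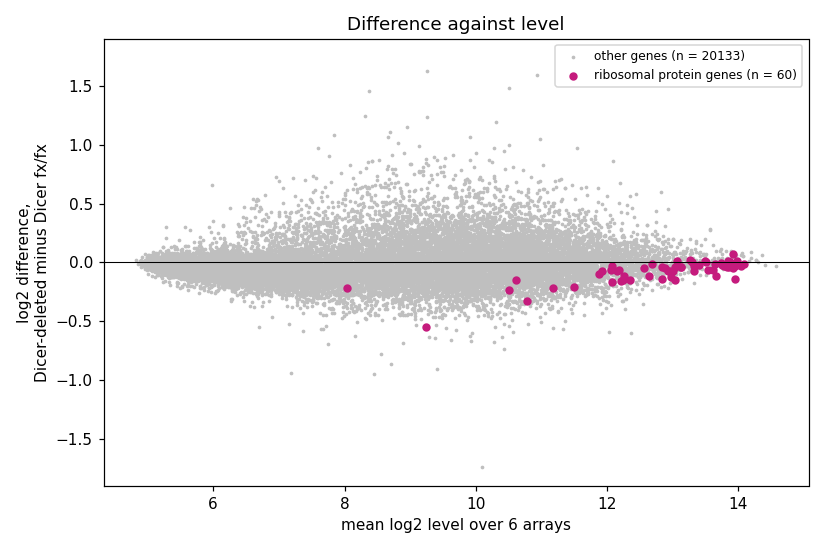
Log2 difference of Dicer-deleted minus Dicer fx/fx (y axis) against the mean log2 level over the 6 arrays (x axis), for 60 ribosomal protein genes (magenta) and the other genes of the 20193 tested (grey). Most ribosomal protein genes sit at the bright end just below 0, and the members far from 0 are dim ones; the lowest grey point is Dicer1 at -1.74.

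The choice of probe set decided the values of some members with the most negative differences. Ribosomal protein genes have many processed pseudogenes, and probe sets that name several symbols were left out by the rule. When they were admitted, 17 members were represented by a brighter probe set and 18 genes were added, which gave 78. Rps12 was then at -0.08, beside -0.55 by the rule, on a probe set whose mean log2 level was 12.83, beside 9.24. Rpl23a was at -0.10, beside -0.33, Rpl34 at -0.04, beside -0.17, and Rpl30 at 0.01, beside -0.15. Rplp2 moved the other way, to -0.33, beside -0.21, with -0.18, -0.14 and -0.68 in experiments 18, 19 and 20. The mean log2 level of its brighter probe set was 10.18. By the rule Rplp2 was at 8.04, below the median of 8.29 over all genes. Of the 17 replaced values 11 were smaller in size and 3 had the other sign. On such probe sets, signal from the gene and from its copies cannot be told apart. Of the 78, 50 (64.1%) were lower in all 3 experiments. The 18 added genes alone gave 12 lower and 0 higher in all 3, with a median of -0.05 and a range of -0.23 to 0.04. Of all genes, read on probe sets that name 1 symbol, 28.3% were lower and 15.2% higher in all 3.

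**Figure D4:**
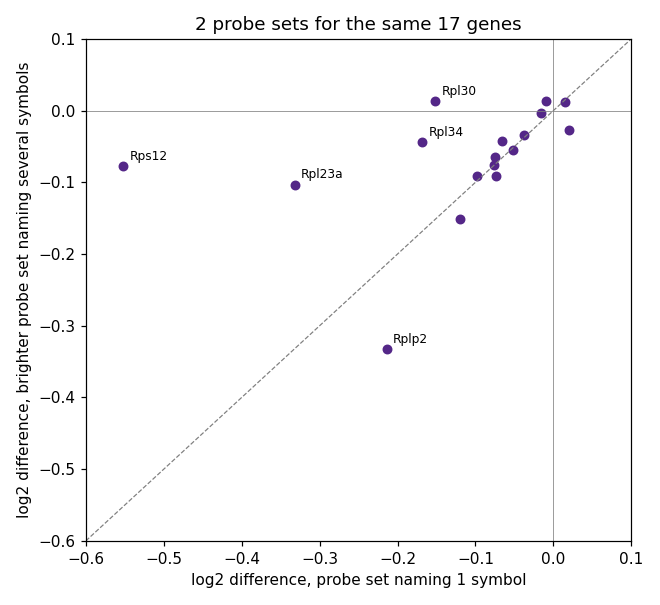
Log2 difference of Dicer-deleted minus Dicer fx/fx for the 17 members with 2 choices of probe set: the probe set that names 1 symbol (x axis) against the brighter one that names several (y axis). The dashed line marks equal values; Rps12 and Rpl23a, at -0.55 and -0.33 on the x axis, are at -0.08 and -0.10 on the y axis.

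Probe sets that name the same single symbol gave values whose spread was small but not small beside the differences. In the 35 members with more than 1, the range of mean differences within a gene had a median of 0.03, beside a median difference of -0.05 over the 60 genes. In 6 of the 35, Rpl21, Rpl28, Rpl31, Rpl38, Rpl41 and Rplp0, probe sets of the same gene differed in sign. The range was widest in Rpl12, where 6 probe sets ran from -0.45 to -0.03, and in Rpl31, from -0.05 to 0.14. Among the 117 probe sets not chosen, 94 had a lower mean in deleted cells, with a median of -0.04. The share over all probe sets was not counted. The lowest Rpl12 value and the highest Rpl31 value came from probe sets at log2 levels of 10.52 and 8.35. Those chosen were at 13.96 and 12.56. Whether a probe set that names 1 symbol reads the gene or a copy of it was not tested. This holds for the chosen ones too, and probe sets of the same symbol are not separate evidence.

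Paralogues of ribosomal proteins showed small differences as well. Of the 6 measured, 4 were lower in all 3 experiments, where 28.3% of all genes were. Among these, Rps4l and Rpl3l had mean log2 levels of 8.03 and 6.51, below the median of 8.29 over all genes. Rps27l, a paralogue of Rps27 that responds to p53, had 8100, 7897 and 7959 in deleted samples, against 9184, 8449 and 8898 in controls. All 3 deleted samples were below all 3 controls, and the difference was -0.15 ± 0.06 (adjusted p = 0.831). Rps27 itself, on a probe set that names several symbols, was at -0.13, -0.32 and -0.24 in the 3 experiments. Rps4l had 237.8, 253.4 and 228.8 in deleted samples, against 283.2, 276.2 and 299.1 in controls, a difference of -0.25 ± 0.07 (adjusted p = 0.824) with no overlap. Rpl3l, the striated-muscle paralogue of Rpl3, was at -0.15 ± 0.09 with intensities of 81.23 to 93.37 in deleted and 91.22 to 104.6 in control arrays. Rpl7l1 was at -0.10 ± 0.25, Rpl39l at -0.04 ± 0.06 and Rpl10l, a testis paralogue of Rpl10, at 0.02 ± 0.17, and these 3 changed sign when some single arrays were left out.

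Other genes of ribosome production and translation were read from lists, none of whose members passed the test in either direction, with or without the block (0 of each list). Beside the counts below stand 62.2% of all genes with a lower mean, 28.3% lower and 15.2% higher in all 3 experiments. Ribosome biogenesis factors, which process ribosomal RNA and assemble subunits, had 39 of 41 measured members with a lower mean, 18 lower (43.9%) and 0 higher in all 3 experiments, and a median of -0.19. By experiment it was at -0.05 (18), -0.02 (19) and -0.47 (20), and control 20 stood 0.57 above the other controls at the median of the list. Nob1, the nuclease that completes 18S ribosomal RNA, had 1839, 1696 and 1887 in deleted samples, against 2166, 2155 and 2610 in controls (-0.35 ± 0.10, adjusted p = 0.824). Imp3, a processing factor of the small subunit, was at -0.31 ± 0.09, and Nmd3, the export adaptor of the large subunit, at -0.27 ± 0.10. Both were below control in all 3 experiments and without overlap. RNA polymerase I, which transcribes ribosomal RNA, had 11 of 14 subunits and factors with a lower mean, 3 lower (21.4%, below the share of all genes) and 0 higher in all 3 experiments, and a median of -0.14. Polr1c and Polr1d, subunits shared with RNA polymerase III, were at -0.30 ± 0.07 and -0.41 ± 0.22, and Znrd1 at -0.32 ± 0.18. This list too was at -0.02 in experiments 18 and 19 and at -0.35 in experiment 20. Control 20 stood 0.50 above the other controls at its median, where it stood -0.10 from them at the median of the ribosomal protein genes. The difference between these lists was not tested.

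Elongation factors and other TOP messenger RNAs had 12 of 16 with a lower mean, 6 lower (37.5%) and 2 higher (12.5%) in all 3 experiments, and a median of -0.04. Btf3, part of the nascent-chain complex, was at -0.13 ± 0.07, the elongation factor gene Eef1g at -0.34 ± 0.19, with -0.81 in experiment 20, and the intermediate filament gene Vim at 0.28 ± 0.17. Rack1, a small-subunit protein outside the naming series, was in this list and had experiment differences of -0.06, -0.06 and -0.05. Initiation factors had 23 of 31 with a lower mean, 10 lower (32.3%, near the share of all genes) and 3 higher (9.68%) in all 3 experiments, and a median of -0.05. The helicase gene Eif4a2 was at -0.27 ± 0.22, Eif3i at -0.24 ± 0.10 and Eif2s3x at -0.17 ± 0.11, each lower in all 3 experiments. The lists share 4 initiation factors and, with biogenesis, Npm1.

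Regulators of ribosomal protein messenger RNAs, such as mTOR pathway members, MYC network genes and eIF2 kinases, showed no common side: 10 of 25 had a lower mean, 5 were lower (20%) and 4 higher (16%) in all 3 experiments, and the median was 0.04. Eif2ak2, which encodes the double-stranded RNA-activated kinase PKR that inhibits initiation, had 354.9, 377.6 and 593.6 in deleted samples, against 231.6, 247 and 361.1 in controls. Its experiment differences of 0.62, 0.61 and 0.72 were close to each other, and the mean was 0.65 ± 0.26 (adjusted p = 0.831; SE 0.06 and adjusted p 0.138 with the block). Eif4ebp2, a translation repressor that mTOR controls, had 4028, 3901 and 3167 in deleted samples, against 4348, 4811 and 4776 in controls (-0.34 ± 0.11, adjusted p = 0.825). Yy1, a factor with sites in ribosomal protein promoters, was at -0.19 ± 0.07, lower in all 3 experiments with no overlap.

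**Figure D5:**
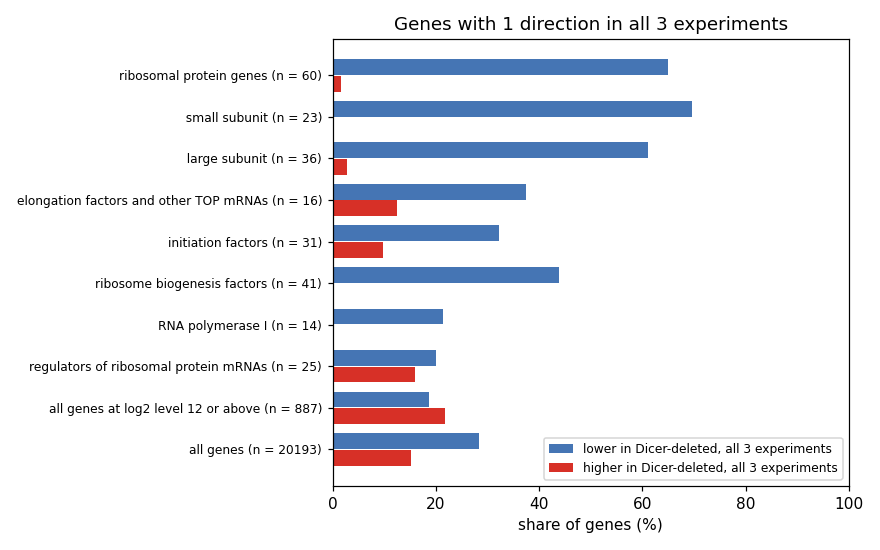
Share of genes (x axis, in percent) that were lower (blue) or higher (red) in Dicer-deleted than in Dicer fx/fx cells in all 3 experiments, for ribosomal protein genes, their subunits, related lists and all genes (y axis, with n). Ribosomal protein genes stand at 65% lower and 1.67% higher, all genes at 28.3% and 15.2%.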

How the data were processed

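The authors deposited, for each of 6 arrays, a linear intensity and a log2 value; per the submitters' processing notes RMA and Affymetrix Expression Console 1.2 were used, and per the file headers probe sets carry an mm9 annotation. The deposited log2 value is the log2 intensity minus the probe set's median over the 6 arrays (largest deviation 2.31e-06), and the series table holds the same values. The arrays were thus normalized against each other, and a general change in RNA content cannot be seen. No detection calls were used.

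Of 28856 probe sets, 22439 named 1 symbol; 9 of these with several identifiers were left out. The brightest probe set per gene gave 20193 genes, with names updated through Entrez identifiers. Groups were set against each other by limma (version 3.58.1, R 4.3.3), with group as the only term, with Benjamini-Hochberg adjustment at 0.05. Experiment numbers pair the samples, since the labels' protocols say that controls were plated alongside. Deviations from group means correlated at r = 0.83, 0.61 and 0.80 between the arrays of experiments 18, 19 and 20, and at 0.73, 0.52 and 0.82 over the 60 genes. Correlations across experiments were not computed, so these values do not test the pairing. The fit with the experiment as a block is given beside the results.

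Members and lists were chosen with earlier results of these data known. Named genes were Dicer1, any member past the threshold, the 6 members with the largest mean rise and the 6 with the largest mean fall among those with 1 direction in all experiments, the 4 per direction with the smallest p with the block, Rplp0, Rplp1, Rplp2, Rpl5, Rpl11, Rps6, Rps19, Rps27l and Rpl22, the paralogues, and the 3 genes with the smallest block p in each of 5 related lists. All others, such as Rps3, Rps15a, Rpsa, Rpl12, Rpl31, Rpl30, Rpl34 and Rack1, were chosen after their values were seen. The series' design text calls the 3 experiments independent deletions. Scripts were tested on simulated data. Plots were made in Python 3.11.15 (matplotlib 3.10.9). Values of 1 member are not reported singly here. Alternatives are given at the end.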

Additional observations from a re-analysis of the deposited data

How the results depend on the processing

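The count of 0 members past the threshold was the same under every alternative run, with an adjusted p under 0.1 and with the replicate block included; the block left 5 members lower and 0 higher at an unadjusted p under 0.05. The median difference of -0.05 was -0.070 after quantile normalization again, -0.038 over the 51 members at log2 level 12 or above (a limit chosen after seeing the data), and -0.089 to -0.017 with 1 array left out. The count higher in all experiments was 1, and it was 0 after quantile normalization again, 2 with probe sets of several symbols, and 1 to 2 with an experiment left out. The count lower in all experiments was 39, and 29 with arrays centred on their medians; it has no value with 1 array left out. The difference between subunit medians was -0.026, and -0.051 to 0.018 with 1 array left out. Dicer1 kept its difference of -1.74 with the replicate block (adjusted p = 0.0666) and with trend and robust settings (-1.74, adjusted p = 0.107), where it lost its call, as it did with an array or experiment left out (-1.81 to -1.66). Values near 0 changed sign: after quantile normalization again Rpl21 was at -0.012, Rpl41 at -0.023 and Rpl5 at -0.0051. With arrays or experiments left out, ranges were -0.017 to 0.048 for Rpl9, -0.0029 to 0.039 for Rpl21, -0.0061 to 0.027 for Rpl41, -0.063 to 0.058 for Rpl5, -0.30 to 0.12 for Rpl7l1, -0.17 to 0.14 for Rpl10l and -0.072 to 0.018 for Rpl39l. The cause was not tested. For the 15 named members, 243 of 254 values under alternatives kept direction and side of the threshold and 11 had the other sign; for 20 other genes it was 330 of 336 and 6. With 3 arrays per group, differences of the size seen here lie near the SE of single genes.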
